A study of Mus musculus with 6 samples.

Results

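The circadian clock genes Per1, Per2, Per3, Cry1, Cry2, Clock, Arntl (also called Bmal1), Nr1d1, Nr1d2 and Dbp were examined in whole mouse bone marrow. All probe sets that the array's annotation assigns to exactly 1 of these 10 gene symbols were taken, which gave all 10 genes, of 18193 named on the array, through 23 of its 45037 probe sets. Marrow came from 3 SCID/Bg mice given NOX-A12 and from 3 untreated SCID/Bg mice, with 1 Affymetrix Mouse Genome 430 2.0 array per mouse. NOX-A12 is an RNA oligonucleotide of mirror-image sugars made to capture the chemokine CXCL12, and SCID/Bg mice of both groups lack mature T and B lymphocytes and have impaired natural killer cells. The study asks what NOX-A12 does to gene expression in the marrow. The sources used here give no dose, schedule or age, nor the hour at which each mouse was killed, and the part of time of day in the values below was not tested.

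The clock is a feedback loop that runs in nearly every cell. The proteins CLOCK and BMAL1 bind DNA together at E-boxes and switch on the Per and Cry genes, whose products then return to the nucleus and block CLOCK and BMAL1. A second loop runs through the nuclear receptors REV-ERB alpha (Nr1d1) and REV-ERB beta (Nr1d2), which are also switched on at E-boxes and repress Arntl at elements shared with the ROR receptors. Dbp is an output of the loop, a transcription factor that acts on D-boxes. Transcripts of Per, Nr1d and Dbp genes and those of Arntl therefore peak at opposite times of day, and in mouse marrow Cxcl12 itself is known to follow a daily rhythm.

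The response elements through which these loops close can be read in some of the genes' promoters. RefSeq promoter windows on GRCm38.p6, from 250 bases before to 50 after a transcription start, were available for 9 of the 10 genes, in 13 windows, since some genes have several starts. They were searched on both strands for the E-box CACGTG, the variant E-box CACGTT, the D-box TTATGTAA and the core TAGGTCA of the element bound by REV-ERB and ROR receptors. No position can match more than 1 of the 2 E-box forms. The sequences below are shown because they hold elements of each kind in genes of the loop, or, for Dbp, because that gene had the largest difference between groups. Capitals mark the matches, and each run is 5′ to 3′ on the gene's strand. The first 4 are the 250 bases before the start, and the Arntl run is a 30-base stretch just after it.
Per1 (chr11:69098699-69098948, plus strand): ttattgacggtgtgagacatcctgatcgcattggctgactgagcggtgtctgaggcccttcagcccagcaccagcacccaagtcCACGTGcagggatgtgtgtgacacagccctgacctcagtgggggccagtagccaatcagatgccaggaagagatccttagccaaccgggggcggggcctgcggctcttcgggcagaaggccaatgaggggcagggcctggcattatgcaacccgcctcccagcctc
Cry1 (chr10:85185055-85185304, minus strand): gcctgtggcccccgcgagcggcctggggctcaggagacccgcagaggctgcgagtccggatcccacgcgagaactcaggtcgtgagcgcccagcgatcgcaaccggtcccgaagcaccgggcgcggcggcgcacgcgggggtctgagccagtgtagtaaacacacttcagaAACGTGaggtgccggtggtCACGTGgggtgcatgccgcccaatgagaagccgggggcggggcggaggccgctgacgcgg
Per3 (chr4:151044666-151044915, minus strand): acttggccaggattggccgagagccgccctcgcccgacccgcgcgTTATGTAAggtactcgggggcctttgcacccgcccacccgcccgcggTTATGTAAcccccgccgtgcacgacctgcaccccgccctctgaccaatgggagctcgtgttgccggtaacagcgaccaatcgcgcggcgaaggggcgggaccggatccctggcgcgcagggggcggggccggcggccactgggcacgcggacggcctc
Dbp (chr7:45704997-45705246, plus strand): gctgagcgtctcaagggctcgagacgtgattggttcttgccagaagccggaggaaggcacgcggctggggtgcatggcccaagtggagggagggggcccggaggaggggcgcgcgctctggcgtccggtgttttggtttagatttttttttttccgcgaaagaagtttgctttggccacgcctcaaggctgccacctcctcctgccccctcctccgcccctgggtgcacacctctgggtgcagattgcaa
Arntl (chr7:113207530-113207559, plus strand): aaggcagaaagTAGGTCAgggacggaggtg

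Per1 held an E-box in 1 of its 2 windows, and Cry1 held an E-box and a variant E-box close together. Cry2 and Nr1d1 each held a variant E-box. Per3 held 2 D-boxes, and Arntl held the TAGGTCA core in 1 of its 2 windows. Over all 32851 windows in the table, 7.15% held the E-box, 4.68% the variant E-box, 0.938% the D-box and 2.61% the TAGGTCA core. The windows of Dbp, Nr1d2 and Clock held none of these letters, which says nothing of elements elsewhere in those genes. Per2 had no window in the table.

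The arrays resembled whole marrow. Median intensity lay between 44.8 and 45.6 on the 6 arrays, and having 3 arrays per group limits how precise each value is. Neutrophil genes were among the brightest on the arrays, S100a8 averaging 16616 in NOX-A12 and 16576 in untreated marrow. The erythroid genes Alas2 and Slc4a1 were also bright, while the Hba-a1 probe set was dim at 9.08 in NOX-A12 and 13.02 in untreated marrow. The T-cell genes Cd3e and Cd4 averaged 8.19 and 3.19 in NOX-A12 and 9.63 and 3.98 in untreated marrow. Cd8a, also of the T-cell list, was less dim, at 42.6 in NOX-A12 and 40.1 in untreated marrow. The array of untreated mouse 3 stood apart: 851 of its probe sets differed by over 2-fold from the median of the rest, a count of 44 to 67 for each other array. The mice are numbered separately in the labels, so p-values measure the spread between animals. In whole marrow, fewer cells of a type and less RNA per cell cannot be told apart.

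Log2 changes below subtract the untreated mean of log2(intensity + 16) from the NOX-A12 mean, a scale that makes changes at dim probe sets look smaller than they are. Errors of changes are standard errors from limma, and adjusted p-values are Benjamini-Hochberg values over all 45037 probe sets. No clock gene passed the threshold of 0.05: 0 of 23 probe sets did, and the lowest adjusted p was 0.967. Over the whole array the share past the threshold was 0%, with a lowest adjusted p of 0.790. At an unadjusted limma p under 0.05 there were 4 clock probe sets of 23, or 17.4%, against 4.97% of all probe sets. All 4 were lower in treated marrow, where 3.1% of all probe sets were called lower and 1.88% higher. They were both Dbp probe sets, the bright Nr1d2 probe set and the dimmest Per2 probe set, so they stood for 3 genes. That count was 2 without untreated mouse 3, 1 without NOX-A12 mouse 1, 1 without NOX-A12 mouse 2 and 2 without NOX-A12 mouse 3. Intensities of the 2 groups did not overlap at 4 of the 23 probe sets, or 17.4%, against 9.85% of all probe sets. Of these 4, 3 were lower in treated marrow and 1 was higher, where 5.85% and 4% of all probe sets were so. Of the 23, 16 were lower and 7 higher in treated marrow, with a median log2 change of -0.05, where all probe sets had 22568 lower and 22469 higher. Taking the brightest probe set of each gene, 5 genes were lower and 5 higher, with a median of 0.04.

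**Figure D1:**
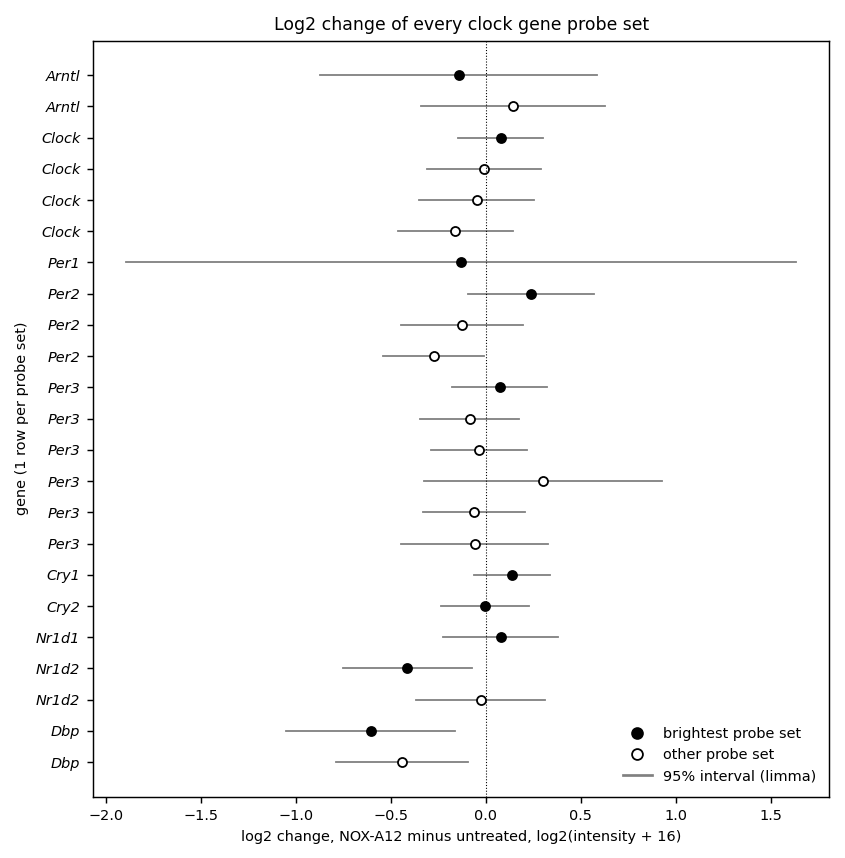
Log2 change (horizontal axis, NOX-A12 minus untreated) of each of the 23 clock gene probe sets, 1 row per probe set, with filled points for the brightest probe set of a gene, open points for the others and grey bars for limma's 95% interval. The intervals of both Dbp probe sets, the brightest Nr1d2 and the dimmest Per2 probe set lie below 0, and that of Per1 is the widest.

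Dbp, the output gene, had the largest difference of the 10. Its brightest probe set read 48.8, 60.4 and 59.3 in NOX-A12 mice 1, 2 and 3, against 70.1, 89.8 and 128.5 in untreated mice 1, 2 and 3. Every treated mouse was below every untreated mouse, and the untreated mice spread 1.83-fold where the treated mice spread 1.24-fold. The log2 change was -0.61 ± 0.19, with a 95% interval of -1.05 to -0.16 and a limma adjusted p of 0.967. The other Dbp probe set, dimmer and near the middle of the array, read 33.5, 26.1 and 20.6 in the NOX-A12 mice and 36.0, 39.0 and 50.7 in the untreated mice. It gave -0.44 ± 0.15, and its groups did not overlap either. Without untreated mouse 3, the change of the brightest probe set was -0.41.

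Nr1d2, which encodes the repressor REV-ERB beta, was next in size. It read 242, 252 and 330 in NOX-A12 mice 1, 2 and 3, against 323, 401 and 385 in untreated mice 1, 2 and 3. NOX-A12 mouse 3 lay just above untreated mouse 1, so the groups overlapped. The log2 change was -0.41 ± 0.14 (95% interval -0.75 to -0.07, limma adjusted p = 0.967), and it ran from -0.54 to -0.33 when single mice were left out. A second Nr1d2 probe set averaged only 4.88 over the 6 mice and gave -0.03 ± 0.14. Nr1d1, which encodes the related repressor REV-ERB alpha, was measured by 1 dim probe set, with 13.5, 5.64 and 9.85 in the NOX-A12 mice and 8.10, 7.05 and 9.25 in the untreated mice. Only 19.4% of all probe sets had a mean as low as this one or lower, and the log2 change was 0.08 ± 0.13, or -0.03 without NOX-A12 mouse 1.

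Per1 varied more between mice of the same group than any other clock gene. It encodes a repressor of CLOCK and BMAL1 whose transcription also answers to glucocorticoids and other acute signals. It read 124, 483 and 203 in NOX-A12 mice 1, 2 and 3, against 73.7, 319 and 650 in untreated mice 1, 2 and 3. The highest mouse stood 3.88-fold above the lowest in the NOX-A12 group and 8.82-fold in the untreated group, and all 3 treated mice lay inside the untreated range. Among the brighter 50% of all probe sets, 99.9% had a log2 range over the 6 mice no wider than that of Per1. The log2 change was -0.13 ± 0.75 with a 95% interval of -1.89 to 1.63, so even large changes of Per1 in either direction were not detectable with these mice. It was -0.93 without untreated mouse 1, 0.02 without untreated mouse 2, 0.52 without untreated mouse 3, 0.28 without NOX-A12 mouse 1, -0.63 without NOX-A12 mouse 2 and -0.04 without NOX-A12 mouse 3.

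The other PER and CRY repressors differed little. Per2 read 111, 123 and 96.7 in NOX-A12 mice 1, 2 and 3, against 86.0, 111 and 78.5 in untreated mice 1, 2 and 3. The groups overlapped, and the log2 change was 0.24 ± 0.14 (95% interval -0.09 to 0.57), or 0.36 without untreated mouse 2 and 0.15 without untreated mouse 3. The other Per2 probe sets went the opposite way, at -0.13 ± 0.14 and, for the dimmest, -0.27 ± 0.11. The dimmest was near background, averaging 8.83 in NOX-A12 and 14.1 in untreated mice, and its groups did not overlap. Per3 had 6 probe sets, the brightest of which read 134, 127 and 112 in NOX-A12 mice 1, 2 and 3 and 126, 106 and 120 in untreated mice 1, 2 and 3. It gave 0.07 ± 0.11, and the 5 others lay between -0.08 and 0.30, 4 of them below 0. Cry1 read 340, 324 and 332 in NOX-A12 mice 1, 2 and 3, against 288, 306 and 305 in untreated mice 1, 2 and 3. Every treated mouse was above every untreated mouse at Cry1, by a small amount: the ratio of group means was 1.11 and the log2 change 0.14 ± 0.09 (95% interval -0.06 to 0.34, limma adjusted p = 0.967). Cry2 read 87.1, 89.8 and 76.4 in the NOX-A12 mice and 90.8, 82.0 and 80.8 in the untreated mice, a log2 change of 0.00 ± 0.10 (95% interval -0.23 to 0.23).

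**Figure D2:**
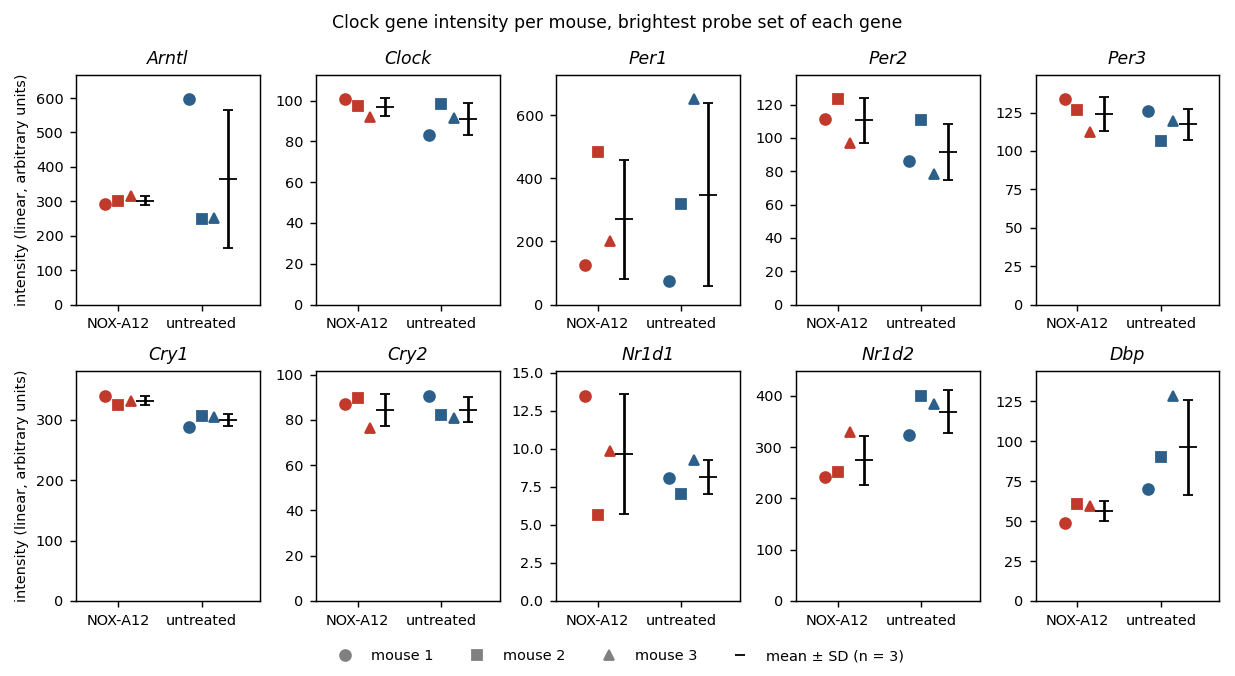
Intensity (vertical axes, linear, each from 0) of the brightest probe set of each clock gene in the 3 NOX-A12 mice (red) and 3 untreated mice (blue), with symbols for mouse number and black bars for the group mean ± SD (n = 3). Dbp and Cry1 are the 2 genes whose groups do not overlap, Arntl stands out in untreated mouse 1 alone, and Per1 is spread widely in both groups.

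Of the activator genes, Arntl was set apart by 1 mouse and Clock was not. Arntl, which encodes BMAL1, read 292, 300 and 316 in NOX-A12 mice 1, 2 and 3, against 597, 248 and 251 in untreated mice 1, 2 and 3. Untreated mouse 1 stood 1.89-fold above the next highest mouse, the other untreated mice lay below all treated mice, and the treated mice differed by only 1.08-fold among themselves. The log2 change was -0.14 ± 0.31 with all mice (95% interval -0.87 to 0.59), but 0.26 without untreated mouse 1, -0.35 without untreated mouse 2 and -0.34 without untreated mouse 3. The dimmer Arntl probe set, at 54.8, 53.3 and 42.6 in the NOX-A12 mice and 65.1, 41.5 and 29.7 in the untreated mice, again had its highest value in untreated mouse 1 and gave 0.14 ± 0.21. Clock, which encodes the partner of BMAL1 and is known to cycle little in most tissues, read 101, 97.5 and 92.1 in NOX-A12 mice 1, 2 and 3 and 83.0, 98.4 and 91.6 in untreated mice 1, 2 and 3. It gave 0.08 ± 0.10, and its 3 other probe sets lay between -0.16 and -0.01.

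Set side by side, the members did not share 1 order of mice, and only Per1 had untreated mice 1 and 3 at its ends. Each gene's log2 values were taken relative to their mean over the 6 mice. Arntl was lowest in untreated mouse 2 (-0.34), and Dbp (-0.46) and Nr1d2 (-0.37) were lowest in NOX-A12 mouse 1. Untreated mouse 1 had the highest Arntl (0.87) and the lowest Per1 (-1.53), Clock (-0.15) and Cry1 (-0.12). Untreated mouse 3 had the highest Per1 (1.36) and Dbp (0.70), with Arntl at -0.32 and Per2 at its lowest, -0.30. A level of the genes driven at E-boxes and D-boxes (Per1, Per2, Per3, Nr1d1, Nr1d2 and Dbp) minus a level of the genes with REV-ERB and ROR elements (Arntl, Clock and Cry1) was computed for each mouse as a description. The grouping follows general knowledge of these genes and not the promoter search, which found the TAGGTCA core in Arntl alone and E-box forms in Cry1, a gene that is driven through both kinds of element. This difference was -0.22, 0.09 and -0.10 in NOX-A12 mice 1, 2 and 3, against -0.49, 0.24 and 0.47 in untreated mice 1, 2 and 3. The treated mice spanned 0.31 and the untreated mice 0.96 on this log2 scale, so all treated mice lay between the untreated extremes. Per1 and Arntl, the genes of widest range, weigh most in this difference, so it does not show all its genes moving together. In untreated mouse 1, Clock and Cry1 were lowest where Arntl, of the same group, was highest. In untreated mouse 3, Per2 was lowest where Per1 was highest. On the same log2 scale the highest and lowest mice differed by 2.89 for Per1, 1.21 for Arntl, 1.16 for Dbp, 0.69 for Nr1d2, 0.56 for Per2 and 0.45 for Nr1d1, and by 0.21 to 0.29 for Per3, Clock, Cry1 and Cry2.

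**Figure D3:**
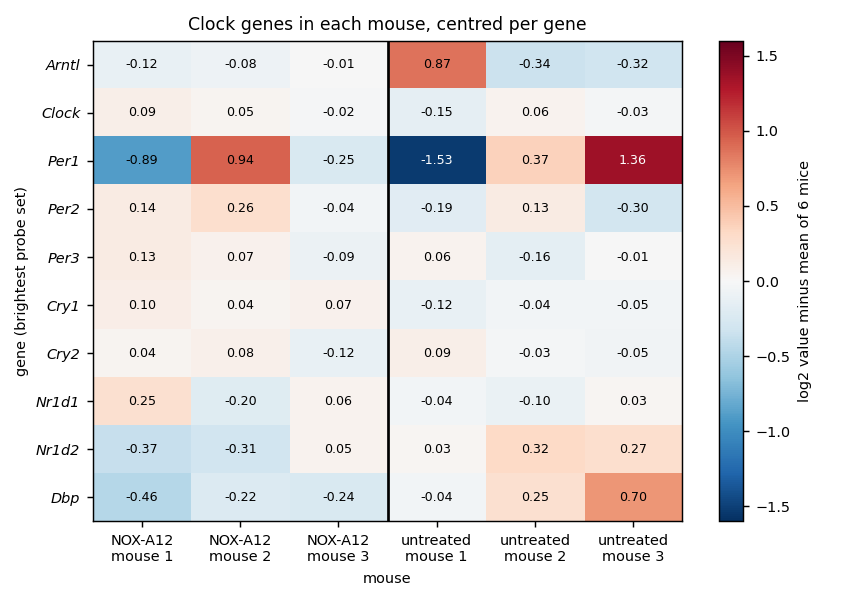
Log2 value of each clock gene (rows, brightest probe set) in each mouse (columns, NOX-A12 left of the line and untreated right of it), relative to the gene's mean over the 6 mice, as colour and number. Untreated mouse 1 combines high Arntl (0.87) with low Per1 (-1.53), and untreated mouse 3 combines high Per1 (1.36) with high Dbp (0.70).

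By role, the repressors Per1, Per2, Per3, Cry1 and Cry2 together averaged 0.03 ± 0.21 in NOX-A12 and -0.03 ± 0.28 in untreated mice (SD, n = 3 each), a difference of 0.06. Without untreated mouse 1 that difference was -0.09, and without NOX-A12 mouse 2 it was -0.06. The activators averaged -0.02 in NOX-A12 and 0.02 in untreated mice, where the SD was 0.30, a difference of -0.03 that ran from -0.13 without untreated mouse 3 to 0.14 without untreated mouse 1. Per1 weighs most in the repressor mean and Arntl in the activator mean, so neither mean shows its genes moving together. The REV-ERB genes averaged -0.08 ± 0.16 in NOX-A12 and 0.08 ± 0.08 in untreated mice (SD, n = 3 each). The difference of the REV-ERB genes was -0.17, or -0.08 without NOX-A12 mouse 2, and only Nr1d2 of the pair was lower in treated marrow at its brightest probe set.

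Other genes of the clock pathway were read from a list of 18, of which 16 had a probe set. They held 10 lower and 6 higher genes with a median log2 change of -0.05, and 0 passed over all probe sets. At an unadjusted limma p under 0.05 there were 2 of the 16, against 4.97% of all probe sets. Rora, which encodes the activator that competes with the REV-ERB receptors, read 66.4, 60.7 and 59.7 in NOX-A12 mice 1, 2 and 3, against 80.0, 87.4 and 86.6 in untreated mice 1, 2 and 3. All treated mice were below all untreated mice, with a change of -0.36 ± 0.09 and a limma adjusted p of 0.926. Bhlhe41, which encodes the repressor DEC2, was near background in both groups, averaging 11.2 in NOX-A12 and 5.97 in untreated mice, and gave 0.31 ± 0.12. Bhlhe40, which encodes the related DEC1, gave -0.21 ± 0.15, and Timeless -0.12 ± 0.09. Tef and Hlf, which encode relatives of DBP that also act at D-boxes, gave -0.10 ± 0.16 and -0.06 ± 0.12, beside -0.61 for Dbp. Nfil3, which encodes the repressor that opposes DBP at D-boxes, gave 0.00 ± 0.20.

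Per1 was set beside other genes that glucocorticoids induce. Of 11 glucocorticoid-induced genes, 6 were higher and 5 lower in treated marrow, with a median of 0.03, and 0 passed. The mean level of that list, relative to the 6 mice, was -0.01, 0.12 and -0.15 in NOX-A12 mice 1, 2 and 3, against -0.39, 0.17 and 0.25 in untreated mice 1, 2 and 3. It was lowest in untreated mouse 1 and highest in untreated mouse 3, the mice with the lowest and highest Per1. Among the treated mice, Per1 and the list were both highest in mouse 2, but Per1 was lowest in mouse 1 and the list in mouse 3. Tsc22d3, which encodes the glucocorticoid-induced leucine zipper GILZ, read 1646, 2039 and 1568 in NOX-A12 mice 1, 2 and 3, against 733, 1686 and 2013 in untreated mice 1, 2 and 3, and its lowest value was thus also in untreated mouse 1. Its log2 change was 0.36 ± 0.35, and that of Fkbp5, which encodes a co-chaperone of the glucocorticoid receptor, 0.39 ± 0.22. The feedback inhibitor gene Errfi1 gave -0.52 ± 0.43 and Cebpd 0.10 ± 0.10. Errfi1, Cebpd, Mt1 and Mt2 were also lowest in untreated mouse 1. Fkbp5 was lowest in untreated mouse 2, and Sgk1, Zbtb16, Klf9, Dusp1 and Ddit4 were each lowest in a treated mouse. The part of glucocorticoid signalling in the spread of Per1 was not tested.

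Dbp was next set beside the stromal genes of the marrow. All 6 genes of the stromal reticular marker list, Cxcl12 among them, were lower in treated marrow, with a median of -0.49, and 0 passed over all probe sets. Their summed intensity ran from 4299 to 5495 in NOX-A12 mice and from 5851 to 7628 in untreated mice. The list's mean level was -0.24, -0.40 and -0.05 in NOX-A12 mice 1, 2 and 3, against 0.00, 0.23 and 0.47 in untreated mice 1, 2 and 3. Dbp relative to its mean was -0.46, -0.22 and -0.24 in NOX-A12 mice 1, 2 and 3, against -0.04, 0.25 and 0.70 in untreated mice 1, 2 and 3. Both had the same order among the untreated mice, with the highest value in untreated mouse 3, whose array stood apart, and for both all treated mice lay below all untreated mice. Among the treated mice the orders differed, Dbp being lowest in NOX-A12 mouse 1 and the stromal list in NOX-A12 mouse 2. The separation of the groups was not particular to the stromal list. The endothelial list's level was -0.11, -0.12 and -0.18 in the NOX-A12 mice, against 0.10, 0.21 and 0.10 in the untreated mice. The B-lineage list's level was -0.40, -0.31 and 0.04 in the NOX-A12 mice, against 0.33, 0.10 and 0.24 in the untreated mice. Neither list followed the order of Dbp among the untreated mice. The genes whose pattern over the 6 mice lay nearest to that of Dbp, among 10990 genes brighter than the array's median, were Vti1a, Pdgfrb and Ltbp2, at Euclidean distances of 0.09, 0.13 and 0.14 on the log2 scale. They were picked for their likeness to Dbp in these same 6 mice, so that likeness is no separate result. Vti1a, the nearest, read 104, 127 and 117 in NOX-A12 mice 1, 2 and 3, against 142, 187 and 255 in untreated mice 1, 2 and 3. Pdgfrb, the gene of a growth factor receptor of mesenchymal cells, read 161, 173 and 181 in NOX-A12 mice 1, 2 and 3, against 195, 256 and 352 in untreated mice 1, 2 and 3. The part of stromal cell content in the Dbp values was not tested.

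The genes nearest to Arntl were less close, with Tmub1, Dntt and Pou2af1 at distances of 0.46, 0.48 and 0.49. Dntt, which encodes the DNA polymerase that adds bases at antigen-receptor joints, read 716, 748 and 798 in NOX-A12 mice 1, 2 and 3, against 1375, 794 and 853 in untreated mice 1, 2 and 3. These genes were picked for their likeness to Arntl in the same mice, so a high value in untreated mouse 1 is no separate result.

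**Figure D4:**
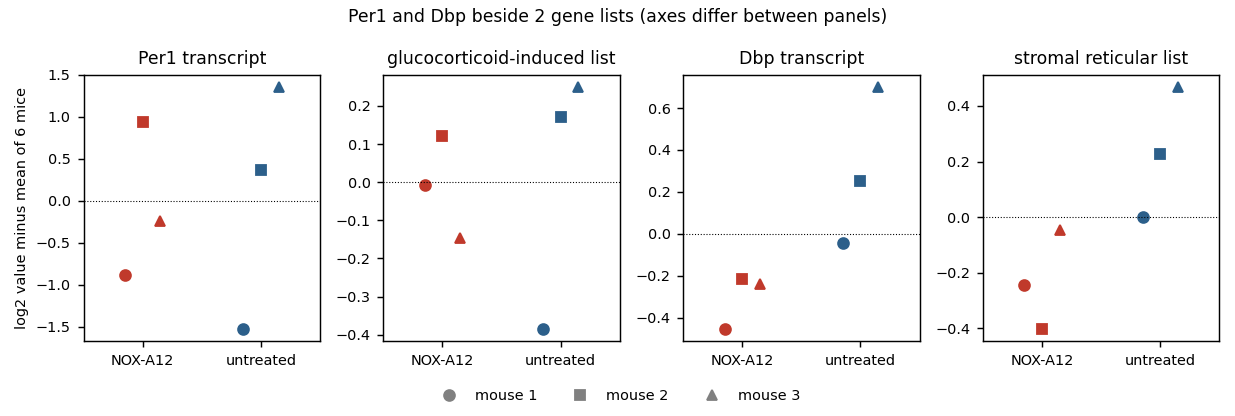
Per1, the mean of 11 glucocorticoid-induced genes, Dbp, and the mean of 6 stromal reticular genes (vertical axes, log2 value relative to the mean of the 6 mice, scales differ) in the NOX-A12 mice (red) and untreated mice (blue), with symbols for mouse number. Untreated mouse 1 is lowest for Per1 (-1.53) and the glucocorticoid list (-0.39), and untreated mouse 3 is highest in all 4 panels.

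Cxcl12, the gene of the chemokine that NOX-A12 binds, read 2951, 2580 and 3131 in NOX-A12 mice 1, 2 and 3, against 3608, 3664 and 4098 in untreated mice 1, 2 and 3. All treated mice were below all untreated mice, at -0.39 ± 0.11 with a limma adjusted p of 0.926. Among the untreated mice, Cxcl12 was lowest in mouse 1, which had the highest Arntl and lowest Per1, and highest in mouse 3, which had the highest Per1 and Dbp. Untreated mice 1 and 2 differed little in Cxcl12, however, and the array of untreated mouse 3 stood apart. The treated mice did not follow that order: mouse 2 had the lowest Cxcl12 and, at 483, the highest Per1 of the 3. The part of the clock in these Cxcl12 values was not tested. Cxcr4, the gene of its receptor, gave 0.03 ± 0.09. The heat-shock genes were higher in all 6 cases, with a median of 0.49 and 0 past the threshold. Hspa1b gave 1.85 ± 0.43, Hsph1 1.06 ± 0.29, Hspa1a 0.70 ± 0.30 and Hspa8 0.27 ± 0.10. The groups overlapped at Hsp90aa1 and Dnajb1. The rise was uneven between mice, Hspa1b reading 514, 167 and 135 in NOX-A12 mice 1, 2 and 3. The list's mean level was 0.74, 0.26 and 0.04 in the NOX-A12 mice, against -0.22, -0.45 and -0.37 in the untreated mice. Hspa1a and Hspa1b are near-identical copies, so their probe sets may share signal.

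The remaining marker lists were read for the make-up of the marrow. Of the 44 markers listed in 10 lists, 41 had a probe set and 0 passed over all probe sets. Median log2 changes were 0.12 for neutrophil precursors, 0.00 for mature neutrophils, 0.03 for erythroid cells, 0.00 for monocytes and macrophages, -0.49 for the B lineage, -0.07 for T cells, -0.14 for megakaryocytes, -0.27 for endothelium and 0.06 for skeletal muscle. The B lineage median rested on 3 genes and the T-cell median on 3 genes, of which Cd3e and Cd4 were near background. No endothelial gene lay near the endothelial median: Kdr gave -0.54 ± 0.12 and Cdh5 -0.52 ± 0.17, but Emcn -0.03 ± 0.09 and Pecam1 -0.01 ± 0.20. The part of these shifts in the clock gene values was not tested.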

How the data were processed

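The deposited values were probe-set intensity values on a linear scale, 1 table for 6 arrays, made from biotinylated cRNA per the labels' protocols; the sources used here do not name the summarisation software or normalization. Groups and mouse numbers came from the sample titles. The medians of the 6 arrays differed by at most 0.0262 on the log2 scale, so intensities were used as deposited and transformed to log2(intensity + 16). Probe sets were named through the platform annotation: 34945 had 1 gene symbol, 932 had several and 9160 had none listed. All 45037 probe sets were fitted in R 4.3.3 by limma 3.58.1 (lmFit, eBayes, two-sided, no covariate, 7.24 degrees of freedom), with Benjamini-Hochberg adjustment and a threshold of 0.05. The fit was tested on simulated data. The clock genes and all gene lists were chosen with earlier results of these data known. Every clock gene is named, with Cxcl12 and Cxcr4. Also named are the 4 genes of smallest p in the other clock pathway, glucocorticoid-induced and heat-shock lists. So are the 3 genes nearest in pattern to Dbp and to Arntl. Other genes (Tef, Hlf, Nfil3, the further glucocorticoid-induced and heat-shock genes, and markers) were named after their values were seen. Promoter windows came from RefSeq (GRCm38.p6). Alternatives were quantile normalization, median centring, other offsets, a filter on dim probe sets, other variance models, weighted arrays, a block for mouse number, each mouse left out in turn, another threshold and other choices of probe set. Figures were drawn with matplotlib.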

Additional observations from a re-analysis of the deposited data

How the results depend on the processing

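Under every alternative run, 0 clock gene probe sets, 0 other clock pathway genes and 0 of all probe sets passed. The counts at an unadjusted p and those of the other clock pathway were recomputed by choice made after seeing the data. Leaving out single mice, the unadjusted count ran from 1 to 4 of the clock probe sets and from 1508 to 3555 of all probe sets. It was 2 and 1057 with only probe sets above the median intensity, and 2 and 1114 with 1 probe set per gene. With the mouse number as a replicate block it was 3 clock probe sets and 2117 probe sets in all, and 0 passed. The numbers name different animals. Same-numbered mice deviated from their group means with correlations of -0.09, 0.05 and 0.03, where differently numbered mice ranged from -0.21 to 0.22. Whether same-numbered mice shared a processing step was not tested.

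Dbp, Nr1d2, Per2, Per3, Cry1 and Clock kept their direction without any single mouse. Leave-one-out ranges of the log2 change were -0.78 to -0.41 for Dbp, -0.54 to -0.33 for Nr1d2, 0.15 to 0.36 for Per2, 0.01 to 0.14 for Per3, 0.11 to 0.16 for Cry1 and 0.02 to 0.13 for Clock. They crossed 0 for Per1 (-0.93 to 0.52), Cry2 (-0.0418 to 0.0562), Arntl (-0.35 to 0.26) and Nr1d1 (-0.0281 to 0.195). Array weights turned Per1 to 0.15 and Cry2 to 0.0126. The mean over all probe sets of a gene turned Per2 to -0.0546, Clock to -0.0353 and Arntl to 0.00102. The cause was not tested. The other 147 changes of single genes under an alternative kept their direction, but not all of them could have changed. The filter on dim probe sets, the other variance models and the replicate block leave the log2 change of a probe set as it is. Other choices of probe set do so too for genes with only 1. Dbp was -0.40 with an offset of 64, -0.73 with an offset of 1 and -0.44 at its other probe set. The precision is limited by 3 mice per group, and Nr1d1 and the dimmest Per2 and Nr1d2 probe sets by signal near background.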
